A study of Homo sapiens with 6 samples.

Results

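HPRT1, MFGE8 and TAGLN2 are 3 of the 26445 genes whose expression was measured here, and each was represented by 1 probe set, the set of array probes summarised as 1 value per gene. They were selected on measured values: all 3 belong both to the study's list of genes whose transcript level changed upon KIAA1199 induction on these same arrays and to its list of proteins recovered together with KIAA1199 by immunoprecipitation. The comparison of induced with uninduced cells therefore chose them. Their differences, and whether they meet the study's limits, are given only as a description and not as a test of the 3 genes. The probe sets carry Ensembl identifiers, ENSG00000165704_at for HPRT1, ENSG00000140545_at for MFGE8 and ENSG00000158710_at for TAGLN2.

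All 6 arrays were of RNA from Clone 13 of SW480, an established human colon cancer cell line. This clone carries the tetracycline repressor and a KIAA1199 construct that doxycycline switches on, and its medium contained blasticidin S and G418 in both groups. The doxycycline group (3 arrays) was exposed to doxycycline, 50 ng/ml by the labels, for 48 h, and the uninduced group (3 arrays) is labelled as not induced, although the treatment text of its labels is that of the induced cells. The groups come from 3 independent experiments, and the number of arrays limits the precision of every value. Both groups are 1 clone and no arrays of a clone without the KIAA1199 construct were analysed here, so an effect of doxycycline and an effect of KIAA1199 cannot be told apart. The identifiers of KIAA1199 itself and of epithelial marker genes could not be matched to names, and neither the induction nor the cell type was checked on these arrays.

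The 3 genes have unrelated roles. HPRT1 encodes hypoxanthine phosphoribosyltransferase, a cytosolic enzyme that returns the purine bases hypoxanthine and guanine to the nucleotide pool, and its transcript is often used as a reference for the quantification of other mRNAs. MFGE8 encodes a secreted glycoprotein, lactadherin, that binds phosphatidylserine on dying cells and vesicles and links it to integrins on engulfing cells. TAGLN2 encodes transgelin 2, an actin-binding protein of the calponin family that takes part in the organisation of the actin cytoskeleton.

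The sequence before the start of each gene is shown because it is the regulatory DNA next to the transcript that was measured. RefSeq (GRCh38.p14) held windows for all 3 genes, 1 for HPRT1, 2 overlapping ones for MFGE8 and 3 for TAGLN2, 1 for each annotated start of transcription. The 250 bases before the first listed start are printed 5′ to 3′ in the direction of the gene. They lie at chrX:134459915-134460164 on the plus strand for HPRT1, at chr15:88913380-88913629 on the minus strand for MFGE8 and at chr1:159925508-159925757 on the minus strand for TAGLN2. Capitals mark matches, on either strand, to the GC box letters GGGCGG and the CCAAT box letters CCAAT.
HPRT1: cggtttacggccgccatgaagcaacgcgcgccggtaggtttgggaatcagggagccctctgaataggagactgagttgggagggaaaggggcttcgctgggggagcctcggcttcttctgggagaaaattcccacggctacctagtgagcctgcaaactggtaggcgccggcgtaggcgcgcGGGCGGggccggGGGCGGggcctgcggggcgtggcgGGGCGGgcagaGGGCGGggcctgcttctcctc
MFGE8: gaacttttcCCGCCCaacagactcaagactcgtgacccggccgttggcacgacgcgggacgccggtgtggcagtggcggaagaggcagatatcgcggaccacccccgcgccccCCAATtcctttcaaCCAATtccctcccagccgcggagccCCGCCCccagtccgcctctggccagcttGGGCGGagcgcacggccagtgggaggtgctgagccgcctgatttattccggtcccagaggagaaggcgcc
TAGLN2: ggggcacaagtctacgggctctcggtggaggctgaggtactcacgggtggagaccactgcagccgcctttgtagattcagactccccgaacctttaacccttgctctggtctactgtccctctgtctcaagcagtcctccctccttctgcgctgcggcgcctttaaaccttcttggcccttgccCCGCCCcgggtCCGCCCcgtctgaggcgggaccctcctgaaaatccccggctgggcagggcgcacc

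The GC content of the printed windows was 68.8% for HPRT1, 67.6% for MFGE8 and 64.0% for TAGLN2. All 3 were above the median of 58.0% over the 35116 windows of the same length. Of the windows not printed, MFGE8 start 2 had 75.6% and TAGLN2 start 2 had 73.6%, while TAGLN2 start 3 had 57.2%, below the median. Which start these cells use was not measured. The HPRT1 window held 4 GC box matches, all within 68 bases of the start. The MFGE8 window held 3 GC box matches and 2 CCAAT box matches, and the TAGLN2 window held 2 GC box matches. Such letters are common, with GGGCGG in 42.6% and CCAAT in 32.0% of all windows, so their presence does not set the 3 genes apart. The letters TATAAA (in 10.7% of all windows) and CACGTG (in 6.34%) were in none of the 6 windows of the 3 genes, and no 2 matches overlapped. A match is a string of letters, and no binding was measured.

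**Figure D1:**
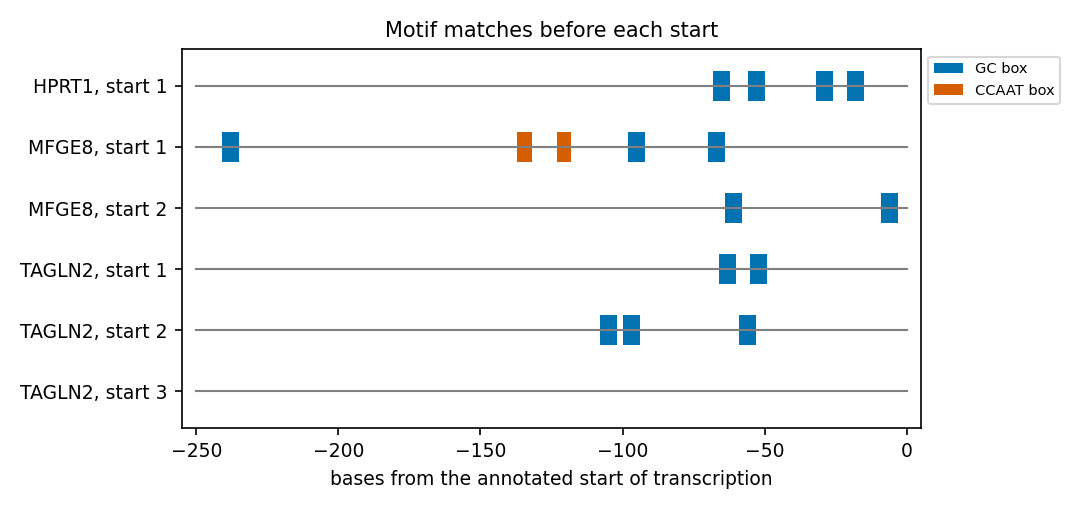
Positions of the GC box (GGGCGG, blue) and CCAAT box (orange) matches on either strand, in bases from the annotated start of transcription, in the 250 bases before each of the 6 RefSeq starts of the 3 genes. HPRT1 has its 4 GC box matches within 68 bases of the start, only MFGE8 start 1 has CCAAT box matches, and TAGLN2 start 3 has no match.

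Upon induction, the HPRT1 level was lower, and the levels of MFGE8 and TAGLN2 were higher, in each of the 3 experiments. A difference in the same direction in all 3 experiments was found for 36.5% of all probe sets. The 3 genes were chosen by this contrast, so nothing is read from their constant direction. The mean log2 differences were -0.32 for HPRT1, 0.24 for MFGE8 and 0.37 for TAGLN2, which correspond to 1.25-, 1.18- and 1.30-fold. The deposited levels are on the log2 scale and share 1 distribution on all arrays, so each difference is relative to the other transcripts on the array. In RNA from whole cultures, less of a transcript per cell and fewer cells that carry it cannot be told apart. The levels of the 3 genes were not compared with one another, because probes of different genes differ in brightness. Mean level was used only to group probe sets by brightness.

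For HPRT1, the log2 levels without doxycycline were 8.54, 8.69 and 8.45 in experiments 1, 2 and 3, and those with doxycycline were 8.31, 8.32 and 8.07. All 3 induced arrays lay below all 3 uninduced arrays, with a gap of 0.13 between the nearest arrays of the 2 groups. The group means were 8.56 ± 0.12 (SD, n = 3) and 8.24 ± 0.14 (SD, n = 3). Within the experiments the log2 differences were -0.23, -0.37 and -0.37, with a mean of -0.32 ± 0.08 (SD, n = 3), which left 79.9% of the uninduced level. HPRT1 thus had the most even differences of the 3 genes, and the SD of its differences was smaller than the median of 0.14 over all probe sets. The study chose its genes by a paired test, which favours a small SD, so nothing is read from this. The mean difference of HPRT1 was larger than the range within either group, 0.24 without and 0.25 with doxycycline. The same held for MFGE8 and TAGLN2. Because this contrast chose the genes, nothing is read from these ranges either. The share of all probe sets for which the same holds was not counted.

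For MFGE8, the log2 levels without doxycycline were 6.98, 6.82 and 6.80, and those with doxycycline were 7.02, 7.11 and 7.18. The groups did not overlap, but the gap was only 0.04, between the 2 arrays of experiment 1. The group means were 6.86 ± 0.10 (SD, n = 3) and 7.10 ± 0.08 (SD, n = 3). The log2 differences were 0.04, 0.30 and 0.38, with a mean of 0.24 ± 0.18 (SD, n = 3). The uninduced array of experiment 1 was the highest of its group and the induced array the lowest of its group, and without experiment 1 the mean log2 difference was 0.34, or 1.26-fold. MFGE8 therefore had the smallest mean difference and the least even differences of the 3 genes, with the largest 9.0 times the smallest.

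For TAGLN2, the log2 levels without doxycycline were 7.55, 7.28 and 7.51, and those with doxycycline were 7.76, 7.69 and 8.02. The groups did not overlap, and the induced array of experiment 2 lay 0.14 above the uninduced array of experiment 1, its nearest neighbour. The group means were 7.45 ± 0.15 (SD, n = 3) and 7.82 ± 0.17 (SD, n = 3). The log2 differences were 0.21, 0.41 and 0.50, with a mean of 0.37 ± 0.15 (SD, n = 3). TAGLN2 had the largest mean difference of the 3 genes and also the widest spread within its groups, with a range of 0.27 without and 0.33 with doxycycline.

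**Figure D2:**
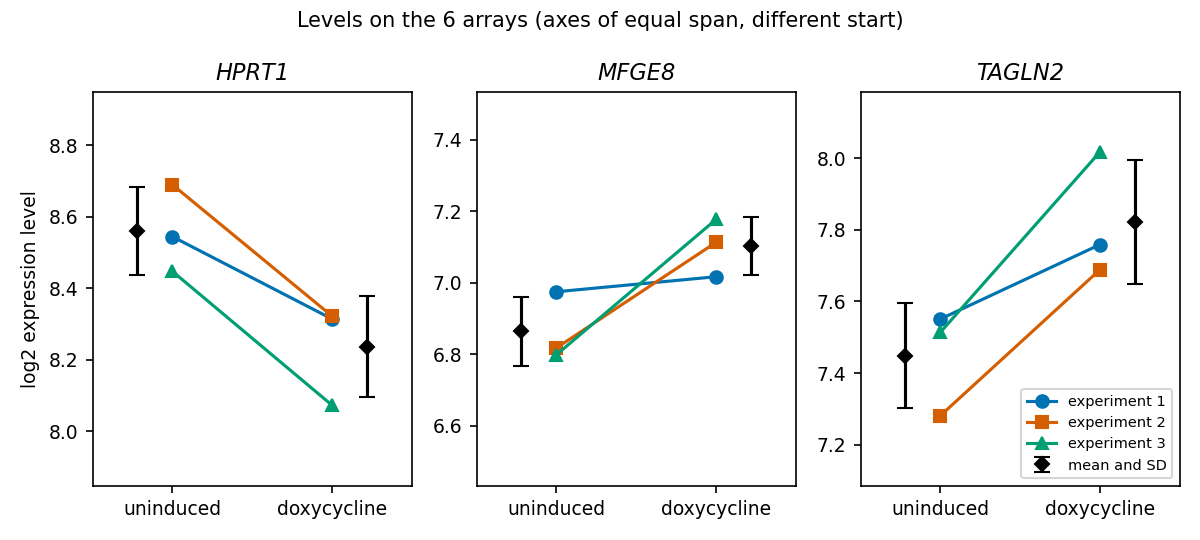
Log2 expression levels of HPRT1, MFGE8 and TAGLN2 on the 6 arrays, with the 2 arrays of an experiment joined by a line and the group mean and SD (n = 3) as a black diamond with bars. The 3 axes have the same span but different starts. All lines fall for HPRT1 and climb for MFGE8 and TAGLN2, and the line of experiment 1 is nearly flat for MFGE8 (6.98 to 7.02).

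Arrays that do not overlap between the groups were not rare in this series. With doxycycline higher they were found for 8.64% of all probe sets, which MFGE8 and TAGLN2 share, and with doxycycline lower for 7.93%, which HPRT1 shares. The study's selection took an unadjusted p under 0.025 together with a fold change of at least 1.2. With limma on the deposited values and the experiment as a block, 5.83% of all probe sets were past these limits, 2.9% raised and 2.94% lowered. HPRT1 and TAGLN2 were among them and MFGE8 was not. With the methods' t-test on the deposited values, 2.18% of all probe sets were past the same limits, HPRT1 among them but not TAGLN2 or MFGE8. The study made its list on transcript clusters, the gene units of its own processing, and not on these Ensembl-named probe sets. The calls given here therefore need not match that list. When experiment 1 was left out, 1344 of 26445 probe sets met both limits by limma, including HPRT1 and TAGLN2 but not MFGE8. The number was 994 when experiment 2 was left out and 986 when experiment 3 was left out. None of the 3 genes met both limits in either of these fits. Since the same contrast chose the genes, nothing is read from these counts. With respect to the fold change minimum, HPRT1 (1.25-fold) lay just inside and MFGE8 (1.18-fold) just outside it. MFGE8 was outside the p limit as well. With no fold change minimum, 1818 of 26445 probe sets were past the limit by limma, and MFGE8 was still not among them. After Benjamini-Hochberg adjustment over the whole table, limma left 0% of the probe sets (0 of 26445) under an adjusted p of 0.05. Before adjustment, 3248 were under 0.05 by limma and 2755 by the methods' t-test.

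Within the whole table, the differences of the 3 genes were moderate. A mean log2 difference of at least the same size, in either direction, was found for 9.96% of all probe sets in the case of HPRT1, 18.2% for MFGE8 and 7.0% for TAGLN2, and the median size over all probe sets was 0.10. At least as large a mean log2 difference in the same direction was found at 1359 probe sets for HPRT1, 2354 for MFGE8 and 903 for TAGLN2, each gene included.

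For all 3 genes the difference was smallest in experiment 1, and for HPRT1 it was nearly equal in the other two. In experiment 1 the log2 difference of MFGE8 (0.04) was above that of only 59.6% of all probe sets, against 89.0% in experiment 2 and 92.2% in experiment 3. TAGLN2 was above 83.3%, 93.4% and 95.8% of the probe sets in the 3 experiments. HPRT1 was at the other end, with 15.6%, 8.56% and 8.39% of the probe sets below it. Over all probe sets the median size of the log2 difference was nearly the same in the 3 experiments (0.14, 0.14 and 0.15). Among the brightest 25% by mean level, to which HPRT1 and TAGLN2 belong, it was 0.115, 0.121 and 0.159, with the lowest value also in experiment 1. Of these brightest probe sets, 53.3% differed in the same direction in all 3 experiments, against 36.5% of all probe sets.

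**Figure D3:**
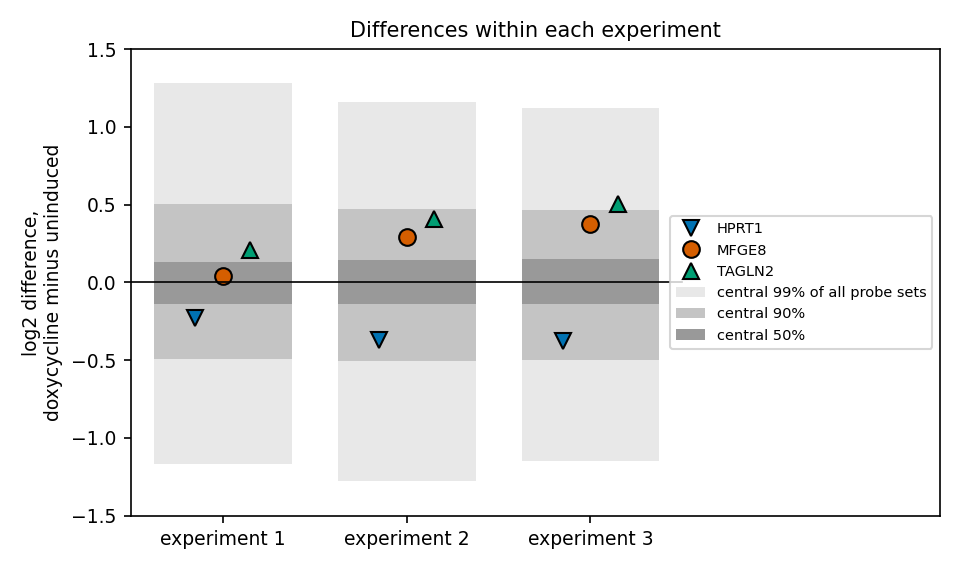
Log2 difference, doxycycline minus uninduced, of HPRT1, MFGE8 and TAGLN2 in each experiment, over grey bars that span the central 50%, 90% and 99% of the differences of all 26445 probe sets. The 3 genes lie closest to 0 in experiment 1, and TAGLN2 in experiment 3 (0.50) is the only one of the 9 values outside the central 90%.

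Comparing the genes with one another within an experiment cancels any shift of a whole array. The log2 difference of TAGLN2 exceeded that of MFGE8 by 0.17, 0.11 and 0.13 in the 3 experiments, a mean of 0.14 ± 0.03 (SD, n = 3). This spread was far smaller than that of either gene's own differences (SD 0.15 and 0.18), and both log2 differences rose from experiment 1 to experiment 3. Both genes were chosen as raised, and 3 experiments are too few to show whether they vary together. How many other pairs of probe sets do the same was not counted. Relative to HPRT1, the log2 difference of MFGE8 was 0.27, 0.66 and 0.75, with a mean of 0.56 ± 0.26 (SD, n = 3), or 1.48-fold. Relative to HPRT1, that of TAGLN2 was 0.44, 0.78 and 0.88, with a mean of 0.70 ± 0.23 (SD, n = 3), or 1.62-fold. Both are larger than on the deposited scale by construction, since HPRT1 was chosen as a changed gene and was lower with doxycycline.

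The deviations of single arrays from their group means also differed between the genes. In experiment 2 the uninduced array was the highest of its group for HPRT1, 0.13 above the group mean, and the lowest of its group for TAGLN2, 0.17 below it. In experiment 3 the induced array was the lowest of its group for HPRT1 (0.16 below the mean) and the highest for MFGE8 (0.07 above) and TAGLN2 (0.20 above). The cause of these deviations was not tested.

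The probe sets most like each gene over the 6 arrays were found by Pearson's r of the log2 levels, a description over 6 points that includes the group difference. For HPRT1 the highest r was 0.997, at ENSG00000166226_at, whose mean log2 difference was only -0.06, since r takes no account of size. For MFGE8 it was 0.993, at ENSG00000158850_at, with log2 levels of 6.14, 6.05 and 6.04 without and 6.21, 6.27 and 6.31 with doxycycline. ENSG00000158850_at was also the most like MFGE8 when the group means were removed. For TAGLN2 it was 0.999, at ENSG00000128791_at, with a mean log2 difference of 0.19. An r above 0.99 was reached by 24 other probe sets for HPRT1, 2 for MFGE8 and 20 for TAGLN2, so MFGE8 had the fewest close companions. With the group means removed, the counts were 24, 14 and 23. Removing the group means leaves fewer independent values per probe set, so the 2 sets of counts are not directly comparable. With 26445 probe sets and 6 arrays, high values of r are frequent, and the identifiers could not be named here.

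The size of the mean differences was recomputed under 13 other settings for each gene. Their direction is no result of this, because groups that do not overlap keep it whichever array is left out. With 1 array or 1 experiment left out, the mean log2 difference stayed between -0.38 and -0.24 for HPRT1, between 0.17 and 0.34 for MFGE8, and between 0.28 and 0.46 for TAGLN2. TAGLN2 was at least 1.2-fold different in 13 of its 13 settings and HPRT1 in 11, the exceptions being those without the uninduced array of experiment 2 (a log2 difference of -0.26) and without the induced array of experiment 3 (1.18-fold). MFGE8 reached 1.2-fold in 3, all of which leave out 1 or both arrays of experiment 1. The study chose the genes with a minimum of 1.2-fold on these arrays, so nothing is read from these counts. Centring each array on its median and a further quantile normalization returned the same values as the deposited levels. How many other probe sets keep a 1.2-fold difference was not counted. RefSeq lists 3 pseudogenes named after HPRT1 and 2 named after TAGLN2, and whether the probes of these genes also bind their transcripts was not tested.

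**Figure D4:**
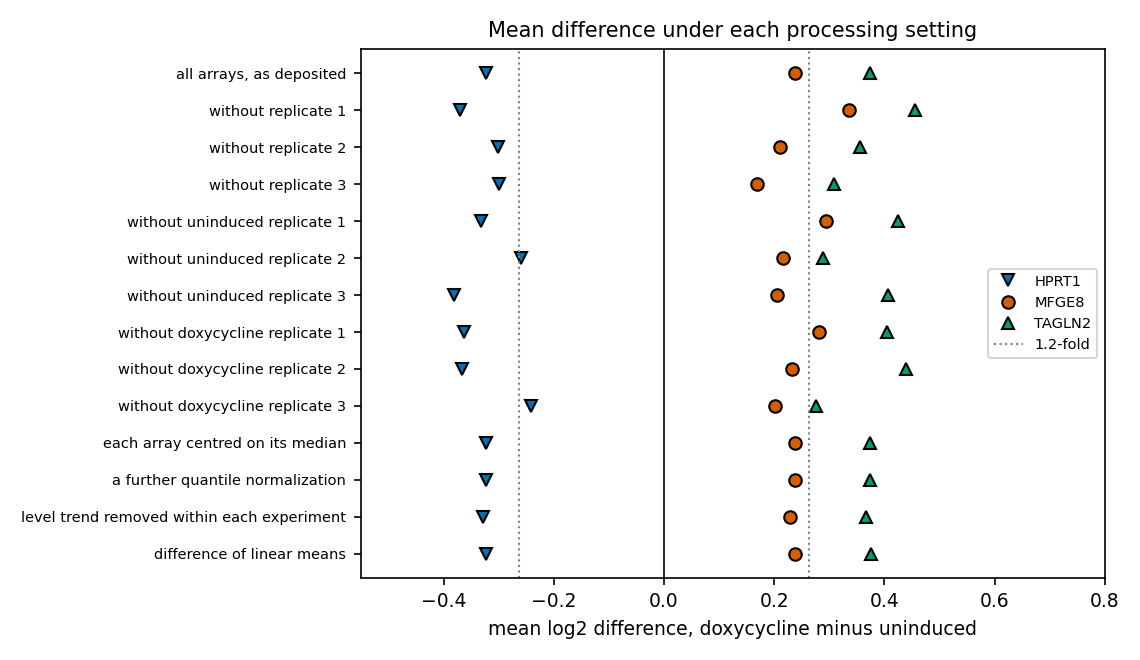
Mean log2 difference, doxycycline minus uninduced, of the 3 genes under each processing setting, 1 row per setting, with dotted lines at a 1.2-fold difference in either direction. TAGLN2 stays beyond the dotted line, HPRT1 falls inside it in 2 settings, and MFGE8 lies inside it unless an array of experiment 1 is left out.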

How the data were processed

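Total RNA of SW480 Clone 13 with and without doxycycline (3 arrays each) was measured on Affymetrix exon arrays, which read each gene through probes in its exons. Log2 levels were deposited by the authors, 1 per Ensembl-named probe set and array. Per the labels they were made with RMA, which corrects background, equalises the distributions of the arrays and summarises probes. The version and annotation are not given in the sources used here. No further normalization was applied, all columns were used, and no detection filter was possible.

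Groups and replicate numbers were taken from the sample titles. Log2 differences were formed within each experiment, and no p is printed for the 3 genes. The fits over all probe sets include them, and whether they met the limits is given only as a description. To give the background over all 26445 probe sets, limma version 3.58.1 in R version 4.3.3 was fitted 2-sided with the experiment as a block, since the study's methods use a paired test, and adjusted by Benjamini-Hochberg. The fit was tested on simulated data. The methods state independent experiments. The deviations of same-numbered arrays from their group means correlated with an r of 0.039, 0.049 and 0.13, which is too little to show a pairing from the data. The methods' t-test, other priors, filters, scalings and left-out arrays were alternatives.

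The genes named are the 3 selected ones and, as identifiers, the probe set most like each by Pearson's r. The genes, gene lists and tests were chosen with earlier results of these data known. The 12 gene lists planned (purine, engulfment and actin genes, reference genes, cell type markers and others) were not run, because no table used here pairs Ensembl identifiers with names. Promoter windows were read from RefSeq (GRCh38.p14). Python version 3.11.15, pandas version 2.3.3 and statsmodels version 0.14.6 were used.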

Additional observations from a re-analysis of the deposited data

How the results depend on the processing

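The sign of the differences of HPRT1, MFGE8 and TAGLN2 could not change when arrays were left out, because their groups do not overlap. In the 4 alternatives that keep all arrays, the differences lay between -0.33 and -0.32 for HPRT1, 0.23 and 0.24 for MFGE8, and 0.37 and 0.38 for TAGLN2 on the log2 scale. Of these, the centring of each array and the further quantile normalization change nothing here, because the deposited values already share 1 distribution. The value that moved by more than the SD of its 3 differences was that of HPRT1 without the induced array of experiment 3, -0.24 in place of -0.32; the cause was not tested.

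The count of probe sets past the limits of the selection, 1543 with the replicate block, was 1050 with no replicate block and 577 with the methods' t-test, in which HPRT1 was past the limits and TAGLN2 and MFGE8 were not. A fold change minimum of 1.5 gave 238 and left out all 3 genes. Without 1 experiment the count was between 986 and 1344. HPRT1 and TAGLN2 were past the limits without experiment 1, and none of the 3 genes was without experiment 2 (994) or without experiment 3 (986). With no replicate block and 1 array left out, the count was between 696 and 1361, including 993 (uninduced array of experiment 1 left out), 997 (induced array of experiment 1), 696 (uninduced array of experiment 2) and 770 (induced array of experiment 3). Compared with 1050, the count of this fit with all arrays, the 696 alone moved by over 1.5 times. In these 6 fits, HPRT1 was past the limits in 1, without the uninduced array of experiment 3, as were 1361 of 26445 probe sets. TAGLN2 was past them in 1, without the induced array of experiment 2 (1332 probe sets). MFGE8 was past them in 1, without the uninduced array of experiment 1 (993 probe sets). Nothing is read from whether the 3 genes were past the limits in any of these fits, since the same contrast chose them. An adjusted p under 0.05 was reached by 0 probe sets with limma and the block, and by 0 in each of the 8 alternatives, with 2574 probe sets at an unadjusted p under 0.05 with no replicate block. The alternative centred on reference genes and the settings of the gene lists were not run, because their identifiers could not be matched. Without detection calls, how far background signal limits these levels was not measured.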
